A study of Mus musculus with 6 samples.

Results

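The genes described here are 44 genes of protein entry into the endoplasmic reticulum (ER) and of N-glycosylation, out of 14777 genes in the count table. They were taken by name: 6 subunits of the signal recognition particle, 2 of its receptor, 7 translocon genes, the 4 subunits of the translocon-associated protein complex, 5 signal peptidase genes, 9 oligosaccharyltransferase genes and 11 genes of dolichol-linked glycan assembly. All 44 names were found, and all 44 passed the filter on low counts. The list was drawn up with the results of the same ΔE2 to FL contrast known, so its counts and fold changes are a description and lend no independent weight to a direction.

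The series compared regulatory T cells (Treg) with the FOXP3 ΔE2 form, which carry a Foxp3 exon 2 deletion (3 libraries), with Treg that have full-length FOXP3, called FL (3 libraries). FOXP3 is the lineage-defining transcription factor of Treg, and the study asked which genes its full-length and ΔE2 isoforms regulate differently. Cells of both groups were of the C57BL/6 strain and had been made in culture from naive CD4 T cells, over 3 days, with coated antibody to CD3 and antibody to CD28, each at 1 µg/ml, and with the recombinant human cytokines TGFβ (5 ng/ml) and IL-2 (20 ng/ml). More than 90% of the cells were FOXP3 positive, per the labels, which name no sex or age. The labels leave unsaid what separates one replicate of a group from the next, so the spread behind each p-value is that of these 6 libraries and may be technical.

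Proteins bound for the cell surface or for secretion carry a signal peptide, which the signal recognition particle binds as it leaves the ribosome. The particle docks at its receptor on the ER membrane, the chain is passed into the Sec61 channel, signal peptidase removes the signal peptide, and oligosaccharyltransferase moves a preassembled glycan from the lipid dolichol onto asparagines of the growing chain. Activated T cells use this route for cytokines, cytokine receptors, the T cell receptor and inhibitory receptors, most of which are N-glycosylated.

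Total counts were 14122086 to 15658111 in ΔE2 libraries and 13307155 to 16140432 in FL libraries. Foxp3 itself stood at 392 ± 51.7 CPM (read counts scaled to a common library size) in ΔE2 and 393 ± 54.8 CPM in FL (SD, n = 3 each; adjusted p = 0.985), a count over all exons that does not check the loss of exon 2. The authors' mapping table gives the share of reads mapped to genes as 75.5%, 75.5% and 69.3% in ΔE2 replicates 1 to 3, against 69.3% to 71.5% in FL libraries. The T cell gene Cd4 was higher in ΔE2 (1244 ± 191 CPM against 884 ± 79.9 CPM in FL, adjusted p = 0.044), and Cd3d, Cd3e and Cd3g had log2 fold changes of 0.40, 0.37 and 0.45 that did not pass the test, but did with the replicate number as a block (adjusted p = 0.0015, 0.0040 and 3.5e-04). In all 3 genes every ΔE2 library lay above every FL library. The Treg markers Il2ra and Ctla4 did not pass with or without the block, and their groups overlapped. Il2ra was at 5325.4 ± 776 CPM in ΔE2 and 5154.5 ± 289 CPM in FL (log2 fold change 0.05, adjusted p = 0.895). Ctla4 was at 522 ± 120 CPM in ΔE2 and 550 ± 79.4 CPM in FL (-0.08, adjusted p = 0.836). Of the other cell types, the 2 markers of CD8 T cells summed to 50.8 to 138 CPM in ΔE2 and 29.0 to 53.0 CPM in FL, and 7 B and plasma cell markers to 40.3, 18.05 and 22.9 CPM in ΔE2 replicates 1 to 3 and 18.9 to 38.8 CPM in FL. Of the CD8 markers, Cd8b1 was at 38.9, 24.5 and 22.0 CPM in ΔE2 replicates 1 to 3 and at 20.3, 14.04 and 18.3 CPM in FL replicates 1 to 3, with no overlap (log2 fold change 0.70 ± 0.22, adjusted p = 0.090; with the block 4.3e-06). Cd8a was at 28.8 to 99.2 CPM in ΔE2 and 14.9 to 32.7 CPM in FL and overlapped (adjusted p = 0.436). Plasma cells are rich in the genes described here. Their markers Jchain and Mzb1 were at 1.16 and 0.98 CPM in ΔE2 against 0.94 and 1.29 CPM in FL. A further plasma cell marker, Sdc1, was at 2.54, 2.56 and 3.24 CPM in ΔE2 replicates 1 to 3. In FL replicates 1 to 3 Sdc1 was at 1.48, 2.74 and 1.42 CPM, and the groups overlapped (log2 fold change 0.55 ± 0.29, adjusted p = 0.279). Of 6 myeloid, 3 natural killer and 4 erythroid markers, 1 each was in the table. Lyz2 was at 0.76 to 14.7 CPM in ΔE2 and 0.18 to 1.77 CPM in FL. The part of CD8 T cells, of plasma cells and of mapping rate in the results was not tested. In bulk RNA, a change in the number of cells of a type and a change in RNA per cell cannot be told apart.

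Of the 44 genes, 15 rose in ΔE2 Treg, 0 fell and 29 did not pass the test (edgeR quasi-likelihood test, adjusted p under 0.05 over all tested genes). Over all 14632 tested genes 6.17% were called, 3.75% as higher (548 genes) and 2.43% as lower (355). The median log2 fold change of the 44 genes was 0.35, beside -0.0043 over all tested genes, and ranged from -0.14 for Tusc3 to 0.80 for Stt3a. It was above 0 for 41 of the 44, as it was for 49.5% of all tested genes. In 25 of the 44 genes every ΔE2 library lay above every FL library, and in 0 below, while over all tested genes these shares were 13.6% and 13.5%. Together the 44 genes took 1.47%, 1.69% and 1.66% of all counts in ΔE2 replicates 1 to 3, against 1.22%, 1.30% and 1.43% in FL replicates 1 to 3. Every ΔE2 library was thus above every FL library in this share, by a narrow margin between ΔE2 replicate 1 and FL replicate 3.

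The calls depended on single libraries. Without ΔE2 replicate 2, 0 of the 44 genes were called (0.849% of all tested genes were higher in that fit), although their median log2 fold change was still 0.31 and 40 of 44 were above 0. Leaving out FL replicate 1 left 4 called (1.69% of all tested genes were higher) and leaving out FL replicate 2 left 5 (1.81%). The count was 10 without FL replicate 3 (2.45% of all tested genes), 10 without ΔE2 replicate 3 (3.69%) and 21 without ΔE2 replicate 1 (5.3%). With the replicate number as a block, which the libraries' shared deviations allow, 26 of the 44 were higher and 0 lower, beside 11.5% and 10.1% of all tested genes. Libraries were scaled with TMM, which corrects for RNA composition, and values are relative to that scale. With plain library sizes the median of all tested genes was -0.14 and that of the 44 genes 0.21, 264 of all genes were higher and 954 lower, and 7 of the 44 were called, all 7 among the 15. ΔE2 replicate 2 held the highest level of 24 of the 44 genes, and FL replicate 1 the lowest of 24.

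**Figure D1:**
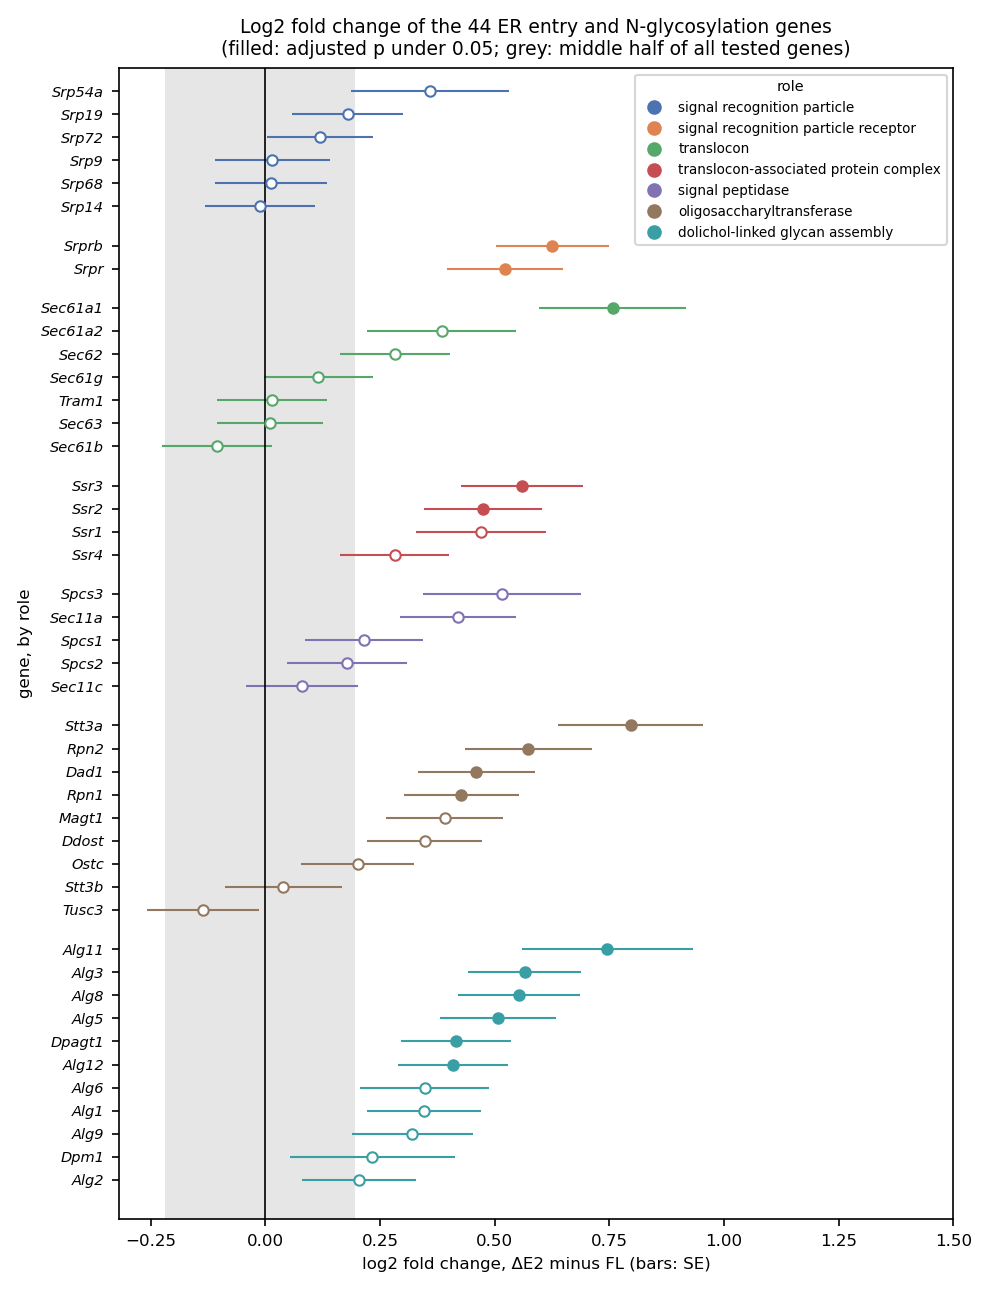
Log2 fold change (horizontal axis, ΔE2 minus FL) of the 44 genes, grouped by role on the vertical axis, with bars for the standard error and filled points for adjusted p under 0.05. The 15 filled points lie in the receptor, translocon, translocon-associated, oligosaccharyltransferase and glycan assembly groups, and most points lie right of the grey band, which runs from the lower to the upper quartile of all tested genes (-0.22 to 0.19).

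**Figure D2:**
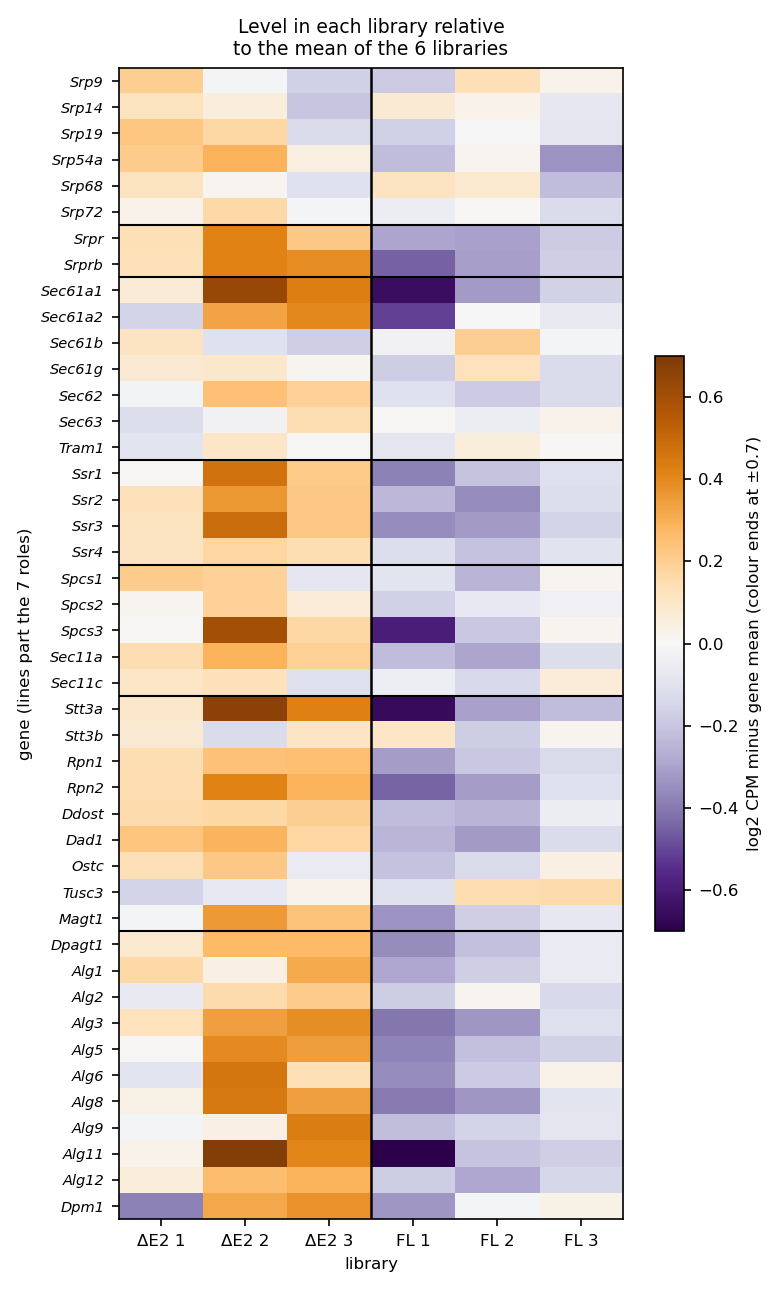
Level of each of the 44 genes (rows, in 7 roles) in each library (columns, ΔE2 left and FL right), as log2 CPM minus the gene's mean over the 6 libraries. ΔE2 replicate 2 has the highest level for 24 genes and FL replicate 1 the lowest for 24, and of the 6 signal recognition particle rows at the top only Srp54a has every ΔE2 library above every FL library.

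Promoter sequence was looked at because ER stress factors act through known short motifs. RefSeq (GRCm38.p6) gave a promoter of 250 bases before to 50 after the start for 32 of the 44 genes, 11 of them among the 15 that rose. The ER stress response element, CCAAT and CCACG with 9 bases of any kind between them, searched on both strands, was in 1 of the 32 (Alg12) and in 0.169% of the 9446 tested genes with a promoter. Neither its second form, ATTGG and CCACG with 1 base between, nor TGACGTGG, the core of the unfolded protein response element, was in any of the 32, against 0.0847% and 1.06% of tested genes. CCAAT, which is part of the element, was in 18 of the 32 (56.2%, against 43.0% of tested genes), and CCACG, its other part, in 20 (62.5%, against 51.9%). Of the 11 that rose, 8 held CCAAT and 8 held CCACG, and of the 21 that did not pass, 10 and 12 did. These matches describe the letters of the window and nothing beyond them. Promoters are shown for Alg12, as the holder of the full element, and for Stt3a and Stt3b, as the paralogues whose fold changes lay farthest apart, a choice made after their values were seen. They are written 5′ to 3′ on the gene's strand, with CCAAT and CCACG of either strand in capitals. In Alg12 the element is formed by the leftmost CCAAT and the leftmost CCACG and spans positions -220 to -202 from the start.
Alg12, GRCm38.p6 chr15:88819269-88819568, minus strand: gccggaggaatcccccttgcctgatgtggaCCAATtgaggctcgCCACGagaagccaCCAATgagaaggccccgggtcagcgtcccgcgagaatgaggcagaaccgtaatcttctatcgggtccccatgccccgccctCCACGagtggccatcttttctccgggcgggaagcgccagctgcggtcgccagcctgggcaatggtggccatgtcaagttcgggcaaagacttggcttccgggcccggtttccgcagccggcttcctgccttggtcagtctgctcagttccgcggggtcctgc
Stt3a, GRCm38.p6 chr9:36767573-36767872, minus strand: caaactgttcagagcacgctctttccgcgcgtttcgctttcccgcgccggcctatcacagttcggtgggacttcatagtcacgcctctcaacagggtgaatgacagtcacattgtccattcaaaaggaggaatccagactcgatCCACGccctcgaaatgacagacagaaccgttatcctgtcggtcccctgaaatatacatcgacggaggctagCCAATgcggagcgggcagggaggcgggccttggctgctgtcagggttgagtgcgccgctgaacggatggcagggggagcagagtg
Stt3b, GRCm38.p6 chr9:115310419-115310718, minus strand: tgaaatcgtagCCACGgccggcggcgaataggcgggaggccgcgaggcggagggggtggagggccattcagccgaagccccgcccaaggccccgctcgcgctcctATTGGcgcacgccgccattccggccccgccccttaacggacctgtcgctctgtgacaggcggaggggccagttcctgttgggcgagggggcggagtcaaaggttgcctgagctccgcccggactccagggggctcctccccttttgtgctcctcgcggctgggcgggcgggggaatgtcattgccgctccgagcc
Stt3a and Stt3b each held 1 CCAAT and 1 CCACG, not spaced as in the element.

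The signal recognition particle binds the signal peptide in the cytosol. None of its 6 protein genes passed the test, and their median log2 fold change was 0.07. Srp14, which with Srp9 forms the part of the particle that slows elongation, was the highest of them per length. It stood at 145, 139 and 116 CPM in ΔE2 replicates 1 to 3 and at 141, 136 and 127 CPM in FL replicates 1 to 3 (log2 fold change -0.01 ± 0.12 SE, adjusted p = 0.967). The groups overlapped, and ΔE2 replicate 3 was the lowest of the 6. Srp9 (0.01), Srp68 (0.01) and Srp72 (0.12), of which the last 2 bind each other on the particle's RNA, and the assembly factor Srp19 (0.18) had log2 fold changes with standard errors of 0.12 to 0.13. Srp54a, the GTPase that contacts the signal peptide, had the largest value of the group (0.36 ± 0.17, adjusted p = 0.220), at only 11.01 ± 0.93 CPM in ΔE2 and 8.56 ± 1.08 CPM in FL (SD, n = 3). Srp54a has the near-identical copy Srp54b (9.46 CPM in ΔE2 and 8.45 CPM in FL), so the split of reads between them is uncertain.

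Both genes of the receptor on the ER membrane rose. Srpr, the GTPase subunit that meets Srp54 (ENSMUSG00000032042.11, mm10 chromosome 9, 35200175 to 35247973, plus strand), stood at 454, 551 and 481 CPM in ΔE2 replicates 1 to 3 and at 337, 335 and 363 CPM in FL replicates 1 to 3. Srprb, the membrane-bound subunit that holds Srpr (chromosome 9, 103188032 to 103202137, minus strand), stood at 141, 172 and 169 CPM in ΔE2 and at 94.1, 104 and 114 CPM in FL. For neither gene did the groups overlap. The log2 fold change was 0.52 ± 0.13 for Srpr (1.44-fold, adjusted p = 0.017) and 0.63 ± 0.12 for Srprb (1.54-fold, adjusted p = 0.0046). The Srprb call was lost without ΔE2 replicate 2 (adjusted p = 0.051). That of Srpr was lost without ΔE2 replicate 2 (0.126), FL replicate 1 (0.084) or FL replicate 2 (0.078). In the GENCODE M21 annotation 20.7% of the exon bases of Srprb are shared with the same-strand gene Gm20425, so part of its reads may be assigned either way. Summed over both receptor genes, the level was 595, 723 and 650 CPM in ΔE2 and 432, 439 and 477 CPM in FL, while the 6 particle genes summed to 613, 605 and 525 CPM in ΔE2 and 552, 579 and 525 CPM in FL. The receptor sums did not overlap between groups and the particle sums did. The difference between receptor and particle was not tested.

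Of the 7 translocon genes, 1 rose, the pore gene. Sec61a1, the subunit that forms the channel (ENSMUSG00000030082.14, chromosome 6, 88503579 to 88518905, minus strand), stood at 1187, 1753 and 1525 CPM in ΔE2 replicates 1 to 3 and at 722, 906 and 1013 CPM in FL replicates 1 to 3. No ΔE2 library reached down to the FL range. Its log2 fold change was 0.76 ± 0.16 (1.69-fold, adjusted p = 0.0085), larger than that of 98.0% of tested genes. The call was lost without ΔE2 replicate 2 (0.62, adjusted p = 0.102), and 8.16% of its exon bases lie opposite the gene Gm44170. The small subunits that complete the channel did not pass: the log2 fold change was -0.11 ± 0.12 for Sec61b and 0.11 ± 0.12 for Sec61g (adjusted p = 0.653 and 0.614). Sec62 and Sec63, which assist chains that enter after their synthesis, had values of 0.28 ± 0.12 (adjusted p = 0.161) and 0.01 ± 0.12 (0.975). The ΔE2 libraries of Sec62 all lay above the FL libraries, and Sec62 passed with the replicate block (adjusted p = 0.023). Tram1, a membrane protein beside the channel, was at 303 ± 20.1 CPM in ΔE2 and 300 ± 14.5 CPM in FL (SD, n = 3; log2 fold change 0.01, adjusted p = 0.960).

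Sec61a2, the paralogue of the pore gene, was at 19.7, 27.6 and 29.0 CPM in ΔE2 replicates 1 to 3 and at 15.4, 22.0 and 21.02 CPM in FL replicates 1 to 3. The groups overlapped, because ΔE2 replicate 1 lay below FL replicates 2 and 3. At 0.38 ± 0.16 on the log2 scale it did not pass (adjusted p = 0.168), but did with the replicate block (0.013) and without ΔE2 replicate 1 (0.031). Of its exon bases 19.9% lie opposite Nudt5, and reads carried no strand (48.4% to 49.8% of coding reads were sense). Per kilobase of gene length Sec61a1 was at 221 ± 42.3 CPM in ΔE2 and 131 ± 21.9 CPM in FL, and Sec61a2 at 5.56 ± 1.09 CPM in ΔE2 and 4.26 ± 0.78 CPM in FL.

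All 4 subunit genes of the translocon-associated protein complex, which sits at the channel and helps some signal peptides to insert, had ΔE2 libraries wholly above FL libraries, and 2 passed the test. Ssr2 (the beta subunit, chromosome 3, 88575876 to 88588419, plus strand), the highest of them per length, stood at 634, 746 and 677 CPM in ΔE2 and at 492, 454 and 534 CPM in FL. Ssr3 (the gamma subunit, chromosome 3, 65379655 to 65392623, minus strand) stood at 501, 650 and 540 CPM in ΔE2 and at 363, 370 and 414 CPM in FL. For each gene ΔE2 replicate 2 was the highest library. Ssr3 rose by 0.56 ± 0.13 (1.47-fold, adjusted p = 0.016) and Ssr2 by 0.47 ± 0.13 (1.39-fold, adjusted p = 0.033). Ssr1, the alpha subunit, had a like fold change of 0.47 ± 0.14 and missed the threshold (adjusted p = 0.052). It passed with the replicate block (1.9e-04), DESeq2 (0.011), the likelihood ratio test (0.022) and without ΔE2 replicate 1 (0.014). Ssr4, the delta subunit, was at 364 ± 7.81 CPM in ΔE2 and 299 ± 12.4 CPM in FL (0.28 ± 0.12, adjusted p = 0.157; with the block 0.023). Without ΔE2 replicate 2 the adjusted p was 0.183 for Ssr2 and 0.133 for Ssr3. Leaving out FL replicate 1 gave 0.120 and 0.083, and leaving out FL replicate 2 gave 0.151 and 0.069. Ssr2 also lost its call without FL replicate 3 (0.059) and without the composition factor (0.083), and 12.8% of its exon bases lie opposite Gm10704.

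None of the 5 signal peptidase genes passed the test, with all 5 log2 fold changes above 0. Spcs1, a small accessory subunit, was at 389 ± 41.6 CPM per kilobase in ΔE2 and 335 ± 30.6 CPM per kilobase in FL, the highest level per length of the 44 genes by the deposited gene length of 1005 bases. By its 1546 exon bases in GENCODE M21, a length set beside it after the data were seen, it was at 253 ± 27.1 CPM per kilobase in ΔE2 and 218 ± 19.9 CPM per kilobase in FL, below Ssr2, Ddost and Spcs2. Spcs1 stood at 418, 412 and 343 CPM in ΔE2 and at 340, 305 and 366 CPM in FL, and the groups overlapped (0.22 ± 0.13, adjusted p = 0.338). In the annotation 16.3% of its exon bases lie opposite Glt8d1. Spcs2 had a value of 0.18 ± 0.13 (adjusted p = 0.449). Spcs3, whose yeast counterpart is essential for the peptidase, was at 561, 843 and 626 CPM in ΔE2 and at 369, 488 and 563 CPM in FL (0.52 ± 0.17, adjusted p = 0.088). ΔE2 replicate 1 and FL replicate 3 were almost level. Spcs3 passed with the block (2.6e-05), DESeq2 (0.030), the likelihood ratio test (0.045) and without ΔE2 replicate 1 (0.027).

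The peptidase has alternative catalytic subunits. Sec11a stood at 788, 871 and 813 CPM in ΔE2 replicates 1 to 3 and at 609, 582 and 657 CPM in FL replicates 1 to 3, with no overlap. Sec11c stood at 291, 296 and 252 CPM in ΔE2 and at 264, 247 and 284 CPM in FL, and overlapped. Sec11a missed the threshold narrowly (0.42 ± 0.13, adjusted p = 0.052) and passed with the block (6.5e-04), DESeq2 (0.0038), the likelihood ratio test (0.023), limma-voom (0.045), the stricter filter (0.049) and without ΔE2 replicate 1 (0.041). The log2 fold change of Sec11c was 0.08 ± 0.12 (adjusted p = 0.752).

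In the oligosaccharyltransferase, 4 of 9 genes rose. The enzyme exists in forms built on either catalytic subunit: STT3A works at the channel while the chain enters, together with OSTC, and STT3B, together with MAGT1 or TUSC3, takes sites that STT3A has passed over (the promoters of Stt3a and Stt3b are printed with the motif counts). RPN1, RPN2, DDOST and DAD1 belong to both. Stt3a (ENSMUSG00000032116.18, chromosome 9, 36729344 to 36767679, minus strand) stood at 1156, 1718 and 1455 CPM in ΔE2 replicates 1 to 3 and at 687, 879 and 927 CPM in FL replicates 1 to 3. All ΔE2 libraries were above all FL libraries, and the log2 fold change of 0.80 ± 0.16 (1.74-fold, adjusted p = 0.0053) was the largest of the 44 genes. Stt3b (chromosome 9, 115242581 to 115310421, minus strand) stood at 365, 316 and 372 CPM in ΔE2 and at 370, 305 and 349 CPM in FL. Its groups overlapped throughout (0.04 ± 0.13, adjusted p = 0.896). The Stt3a call was lost without ΔE2 replicate 2 (0.65, adjusted p = 0.078) and was kept in the other 14 alternatives tried.

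Of the shared subunits, 3 of 4 passed. Rpn2 (chromosome 2, 157279017 to 157326319, plus strand) stood at 1156, 1393 and 1276 CPM in ΔE2 and at 766, 838 and 968 CPM in FL, a rise of 0.57 ± 0.14 (1.49-fold, adjusted p = 0.017). Dad1 (chromosome 14, 54235479 to 54254104, minus strand) stood at 924, 958 and 887 CPM in ΔE2 and at 665, 629 and 719 CPM in FL (0.46 ± 0.13, adjusted p = 0.036). Rpn1 (chromosome 6, 88084482 to 88105304, plus strand) stood at 751, 802 and 809 CPM in ΔE2 and at 545, 594 and 618 CPM in FL (0.43 ± 0.13, adjusted p = 0.047). Groups overlapped in none of the 3 genes. Ddost, the highest oligosaccharyltransferase gene per length, stood at 635, 641 and 654 CPM in ΔE2 and at 487, 479 and 552 CPM in FL. Its groups did not overlap either, and its change of 0.35 ± 0.13 (log2) did not pass (adjusted p = 0.0997; 0.0049 with the block and 0.022 with DESeq2). Without ΔE2 replicate 2 the adjusted p was 0.132 for Rpn2, 0.159 for Dad1 and 0.176 for Rpn1. Without FL replicate 1 it was 0.111, 0.138 and 0.223 in the same order, and leaving out FL replicate 2 gave 0.072, 0.157 and 0.133. Without FL replicate 3 the Dad1 (0.068) and Rpn1 (0.095) calls were lost, and without ΔE2 replicate 3 that of Rpn1 (0.063). Without the composition factor Dad1 (0.089) and Rpn1 (0.124) did not pass, and Rpn1 also not with upper quartile scaling (0.056).

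Ostc, Magt1 and Tusc3 did not pass. Magt1 was at 226, 293 and 269 CPM in ΔE2 and at 181, 203 and 217 CPM in FL, with no overlap (0.39 ± 0.13, adjusted p = 0.072). It passed with the block (9.5e-04), DESeq2 (0.035) and without ΔE2 replicate 1 (0.023). Tusc3 was at 36.0, 38.3 and 40.8 CPM in ΔE2 and at 37.2, 44.5 and 44.7 CPM in FL, the lowest log2 fold change of the 44 genes (-0.14 ± 0.12, adjusted p = 0.551). Ostc had a value of 0.20 ± 0.12 (adjusted p = 0.353).

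The 4 pairs of paralogues were also compared within each library, as the log2 ratio of CPM per kilobase. For Stt3a over Stt3b the ratio was 0.58, 1.36 and 0.88 in ΔE2 replicates 1 to 3 and -0.19, 0.44 and 0.32 in FL replicates 1 to 3. By the deposited lengths (8948 bases for Stt3a and 4221 for Stt3b), Stt3b was thus the higher of the pair in FL replicate 1. Stt3a was the higher in the other 5 libraries. That order depends on the lengths: in CPM not divided by length, Stt3a was at 687 and Stt3b at 370 in FL replicate 1. For Magt1 over Tusc3 the ratio was 2.32 ± 0.15 in ΔE2 and 1.80 ± 0.05 in FL (SD, n = 3). For Sec61a1 over Sec61a2 it was 5.31 ± 0.14 in ΔE2 and 4.95 ± 0.12 in FL, and for Sec11a over Sec11c 0.98 ± 0.13 in ΔE2 and 0.64 ± 0.02 in FL. The deposited length of Sec11c is 3084 bases and its exon bases in GENCODE M21 are 6808, so the level of its ratio depends on the length used, while the difference between groups does not. In each pair the gene with the larger log2 fold change was set on top. The direction that the 4 pairs share follows from that order and is no result. Every ΔE2 ratio lay above every FL ratio in all 4 pairs, a count without a background, as no other pairs of genes were compared. The differences were 0.75 for the Stt3 pair, 0.52 for Magt1 over Tusc3, 0.37 for the Sec61a pair and 0.34 for the Sec11 pair. The exact permutation test of 3 against 3 libraries gave p = 0.1 for each, two-sided, which is the smallest it can give, so that no pair could pass a threshold of 0.05.

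**Figure D3:**
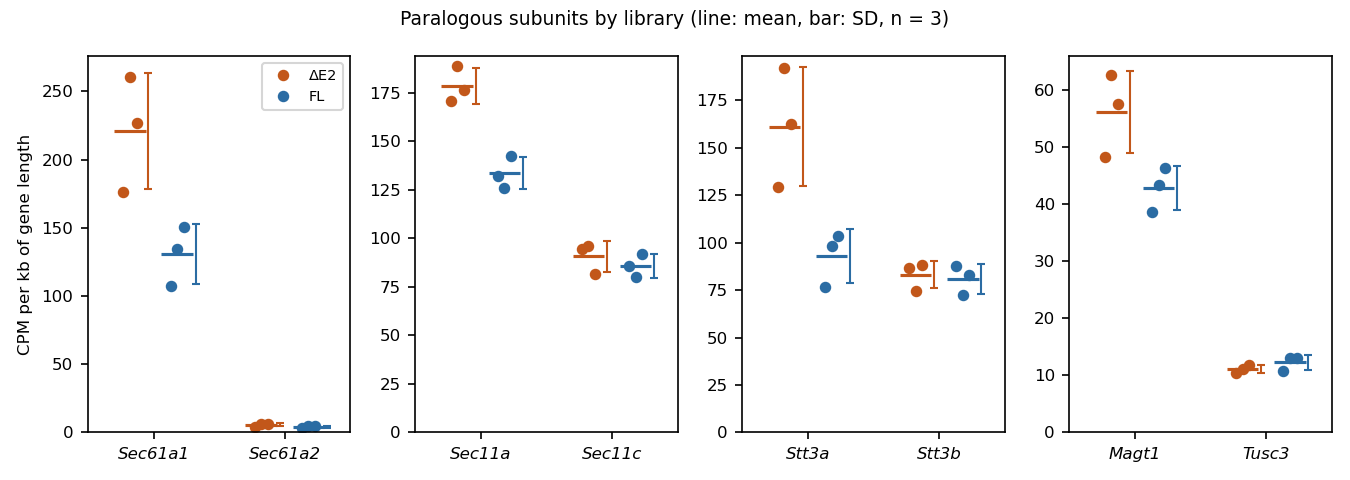
CPM per kilobase of gene length (vertical axis, from 0) of 4 pairs of paralogues in each library, ΔE2 left of FL, with lines for the mean and bars for the SD of 3 libraries. Sec61a1, Sec11a, Stt3a and Magt1 have ΔE2 points wholly above FL points, while the points of Sec61a2, Sec11c, Stt3b and Tusc3 overlap between groups.

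Dolichol-linked glycan assembly had the largest number of calls, 6 of 11, and all 11 log2 fold changes were above 0 (median 0.41). The glycan is begun on the cytosolic face of the ER by DPAGT1, which adds the opening N-acetylglucosamine, and is lengthened there by the mannosyltransferases ALG1, ALG2 and ALG11. Dpagt1 (chromosome 9, 44326019 to 44333900, plus strand) stood at 111, 126 and 126 CPM in ΔE2 replicates 1 to 3 and at 81.7, 89.8 and 100.2 CPM in FL replicates 1 to 3 (0.42 ± 0.12, adjusted p = 0.041). Alg11 (chromosome 8, 22060721 to 22071627, plus strand) stood at 78.9, 125 and 103 CPM in ΔE2 and at 46.5, 67.5 and 68.9 CPM in FL, a rise of 0.75 ± 0.19 (1.68-fold, adjusted p = 0.039). The spread within each group was wide for Alg11, but its groups did not overlap. Alg1 (0.35 ± 0.12, adjusted p = 0.10) and Alg2 (0.20 ± 0.12, adjusted p = 0.344) did not pass, and Alg1 did with the block (0.016). In the annotation 17.6% of the exon bases of Alg1 lie opposite Eef2kmt.

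After the glycan has been flipped into the ER lumen, ALG3, ALG9 and ALG12 add further mannoses. Alg3 (chromosome 16, 20605451 to 20610768, minus strand), the highest of the group per length, stood at 168, 196 and 202 CPM in ΔE2 and at 116, 123 and 143 CPM in FL (0.57 ± 0.12, 1.48-fold, adjusted p = 0.010). Alg12 (chromosome 15, 88805244 to 88819318, minus strand) stood at 43.0, 49.4 and 50.6 CPM in ΔE2 and at 36.5, 33.9 and 37.4 CPM in FL (0.41 ± 0.12, adjusted p = 0.044). In both genes the ΔE2 libraries lay above the FL libraries. Alg9, of which 12.9% of exon bases lie opposite another gene, did not pass (0.32 ± 0.13, adjusted p = 0.149; with the block 0.028).

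ALG6 and ALG8 add the first glucoses, from the donor that ALG5 makes. Alg8 (chromosome 7, 97371606 to 97392185, plus strand) stood at 277, 368 and 342 CPM in ΔE2 and at 205, 214 and 253 CPM in FL (0.55 ± 0.13, 1.47-fold, adjusted p = 0.017). Alg5 (chromosome 3, 54735539 to 54751318, plus strand) stood at 179, 234 and 226 CPM in ΔE2 and at 137, 153 and 160 CPM in FL (0.51 ± 0.13, 1.42-fold, adjusted p = 0.022). Both were lowest in FL replicate 1, with no overlap of groups. Alg6 did not pass (0.35 ± 0.14, adjusted p = 0.146; 0.0090 with the block and 0.038 without ΔE2 replicate 1). Dpm1, which makes the mannose donor, was at 16.9, 27.5 and 28.6 CPM in ΔE2 and 17.5, 21.8 and 22.7 CPM in FL (0.23 ± 0.18, adjusted p = 0.484). Its lowest library was ΔE2 replicate 1.

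Single libraries moved the calls of this group. Without ΔE2 replicate 2 the adjusted p was 0.181 for Dpagt1, 0.176 for Alg11, 0.073 for Alg3, 0.171 for Alg12, 0.141 for Alg8 and 0.149 for Alg5. Without FL replicate 1 it was 0.219 for Dpagt1, 0.067 for Alg3, 0.132 for Alg12, 0.10 for Alg8 and 0.123 for Alg5. Without FL replicate 2 it was 0.121 for Dpagt1, 0.171 for Alg12, 0.073 for Alg8 and 0.061 for Alg5, and in the fit that left out FL replicate 3 it was 0.056 for Dpagt1 and 0.0999 for Alg12. Without ΔE2 replicate 3 it was 0.072 for Dpagt1, 0.131 for Alg11, 0.083 for Alg12 and 0.051 for Alg5. Without the composition factor Alg3 kept its call, and Dpagt1 (0.140), Alg5 (0.067), Alg8 (0.053), Alg11 (0.062) and Alg12 (0.160) did not. Under upper quartile scaling Dpagt1 (0.055) and Alg12 (0.066) were not called, and under the stricter filter Alg12 (0.0502) was not. The fold changes of these 6 genes stayed above 0 in each of these fits.

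**Figure D4:**
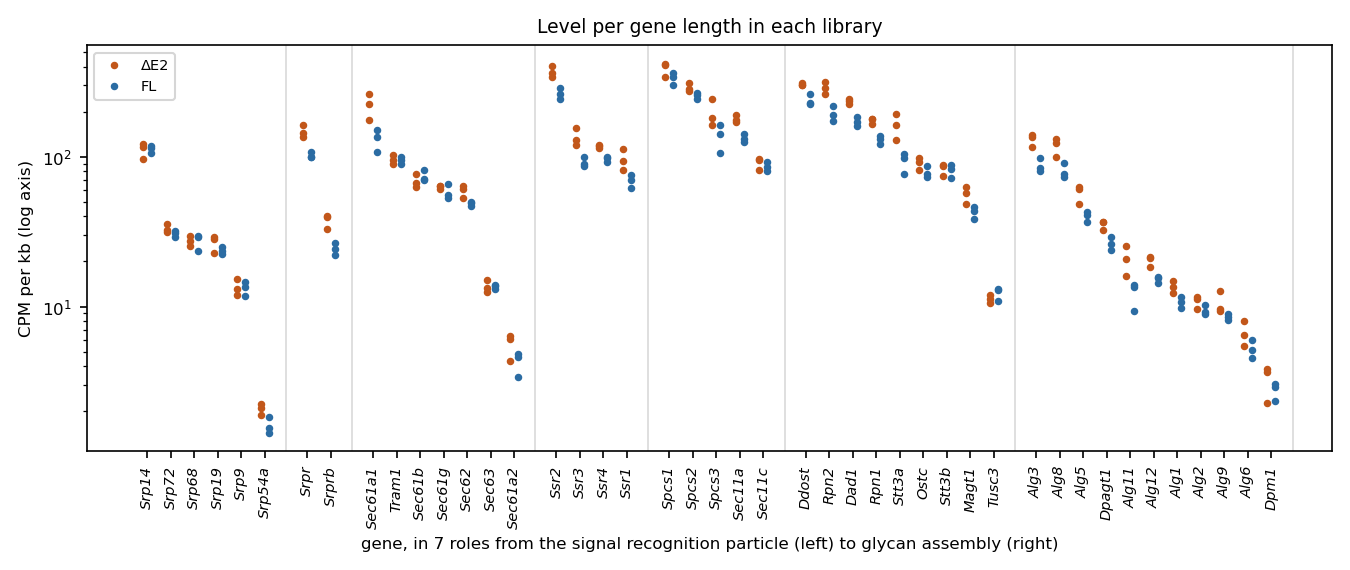
CPM per kilobase of gene length on a log axis for each of the 44 genes, 1 point for each library, ΔE2 left of FL, in the order of the roles. By the deposited lengths, means run from 2.07 in ΔE2 and 1.61 in FL for Srp54a to 389 in ΔE2 and 335 in FL for Spcs1. By the annotation's length Spcs1 would stand at 253 in ΔE2 and 218 in FL, and Ssr2 (368 in ΔE2 and 265 in FL) would be the highest.

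Levels per length spanned a wide range within each group. By the deposited lengths the median over the 44 genes was 76.0 CPM per kilobase in ΔE2 and 71.6 in FL. The annotation gives the same length for 41 of the 44 genes, and one that differs by over 1.5 times for Spcs1 and Sec11c. That length counts every annotated exon base of a gene, over all its transcripts, so the agreement is no check on the order of genes. Each place per length depends on which transcripts the cells make, which was not tested. Spcs1 is left aside here, as its place moved between the deposited and the annotated length. By the deposited lengths the highest others in ΔE2 were Ssr2 (368 ± 30.4), Ddost (304 ± 4.53), Spcs2 (290 ± 17.8) and Rpn2 (288 ± 26.8), of which the last 3 do not differ beyond their SD. In FL Ssr2 (265 ± 21.4), Spcs2 (256 ± 12.1) and Ddost (239 ± 18.9) did not differ beyond their SD, and the SD ranges of Rpn2 (193 ± 23.1) and Dad1 (171 ± 11.6) also overlapped. Among glycan assembly genes Alg3 (130 ± 12.4 in ΔE2 and 87.8 ± 9.67 in FL) and Alg8 (118 ± 16.9 in ΔE2 and 80.5 ± 9.17 in FL) stood well above Alg6 (6.63 ± 1.28 in ΔE2 and 5.21 ± 0.69 in FL) and Dpm1 (3.25 ± 0.86 in ΔE2 and 2.76 ± 0.37 in FL).

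Other genes of the same route were read from lists of textbook members. As background for every list below, 3.75% of all tested genes were called higher and 2.43% lower. Of 11 tested partners of the channel for multipass proteins and of the lumenal chaperone cycle (a list that also holds Srp54b), 3 rose and 0 fell. They were Hspa5, which encodes the ER chaperone BiP that closes and pulls at the channel (3233 ± 411 CPM in ΔE2 and 2034 ± 245 CPM in FL, 0.67 ± 0.15, adjusted p = 0.011), and the multipass translocon genes Ccdc47 (0.59 ± 0.14, adjusted p = 0.015) and Nomo1 (0.56 ± 0.13, adjusted p = 0.017). Of 10 genes of the ER membrane protein complex, which inserts membrane segments without the Sec61 pore, Emc1 (0.78 ± 0.15, adjusted p = 0.0057) and Emc4 (0.39 ± 0.11, adjusted p = 0.041) rose and 8 did not pass. Of 6 tested genes of the tail-anchored route, Wrb, a membrane receptor of that route, rose (40.1 ± 4.53 CPM in ΔE2 and 23.3 ± 1.12 CPM in FL, 0.78 ± 0.13, adjusted p = 8.2e-04), and Bag6, a cytosolic chaperone of the route, fell by 0.55 ± 0.14 (adjusted p = 0.027).

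Of 21 other genes of dolichol, sugar donors and glycan assembly, 2 rose, among them the phosphomannomutase gene Pmm1 (0.86 ± 0.19, adjusted p = 0.011), and 19 did not pass, and of 3 further oligosaccharyltransferase subunits 0 passed. Of 13 genes of glycan trimming and lectin-aided folding, the lectin chaperone gene Calr (1842 ± 72.5 CPM in ΔE2 and 1190 ± 43.7 CPM in FL, 0.63 ± 0.13, adjusted p = 0.0072), the mannosidase gene Man1b1 (0.47 ± 0.12, adjusted p = 0.030) and the glucosidase gene Ganab (0.46 ± 0.12, adjusted p = 0.032) rose. Of 13 Golgi genes that remodel the glycan later, the mannosidase gene Man1a (0.49 ± 0.11, adjusted p = 0.015) and the branching enzyme gene Mgat4a (0.46 ± 0.14, adjusted p = 0.049) rose, and the galactosyltransferase gene B4galt1 fell by 0.44 ± 0.13 (345 ± 36.2 CPM in ΔE2 and 469 ± 42.9 CPM in FL, adjusted p = 0.044). The median log2 fold change was 0.30 for the channel partners, 0.32 for glycan trimming, 0.18 for the ER membrane protein complex, 0.17 for both the sugar donor list and the further oligosaccharyltransferase subunits, 0.01 for the tail-anchored route and -0.01 for the Golgi list, beside 0.35 for the 44 genes. With the replicate block, 11.5% of all tested genes were higher and 10.1% lower. In that fit 7 of 11, 8 of 13, 5 of 10, 7 of 21, 1 of 3, 2 of 6 and 3 of 13 genes of these lists were higher, in the order of the medians above. There, 1 tail-anchored and 2 Golgi genes were lower.

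**Figure D5:**
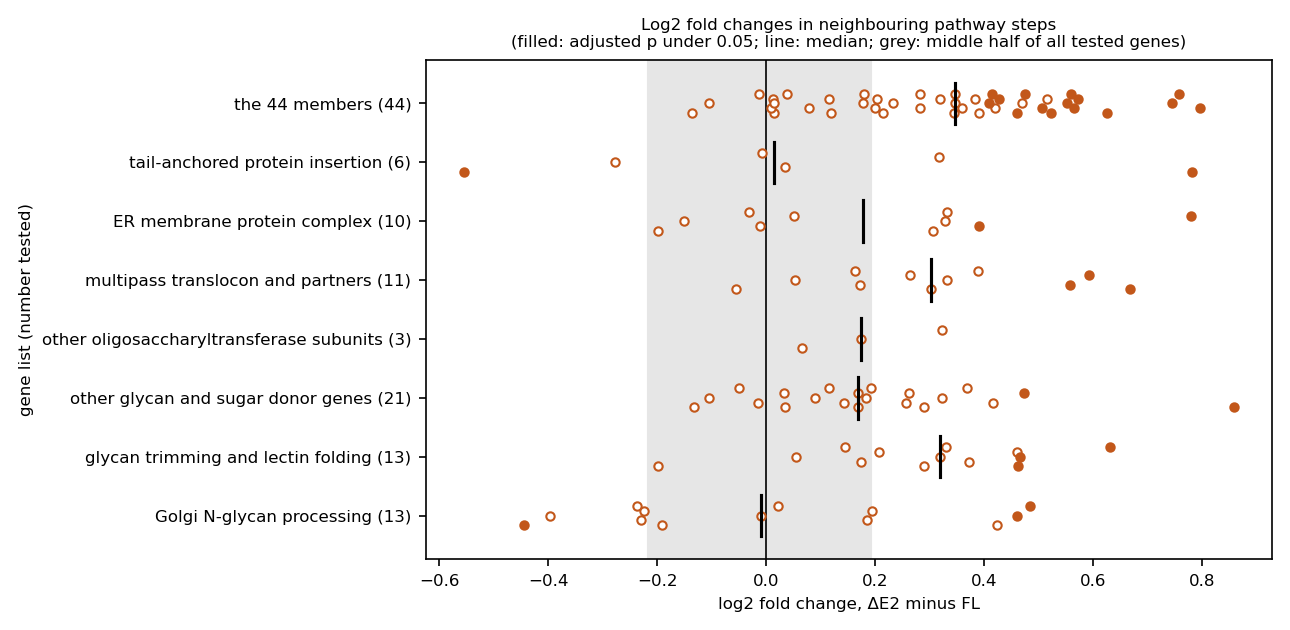
Log2 fold change (horizontal axis, ΔE2 minus FL) of each tested gene of the 44 and of 7 neighbouring lists (rows), with filled points for adjusted p under 0.05 and a line at each median. The medians of the 44 genes (0.35), of glycan trimming (0.32) and of the channel partners (0.30) lie right of the grey quartile band of all tested genes, and those of the Golgi list (-0.01) and the tail-anchored route (0.01) lie inside it.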

How the data were processed

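Polyadenylated RNA was sequenced from 3 ΔE2 and 3 FL libraries. The submitters' processing notes list STAR 2.5, Subread 1.5.1 with featureCounts, bcl2fastq, the mm10 build and edgeR 3.20.8, without settings. For 14777 genes the authors deposited raw read counts in each library beside exon coordinates and a gene length, per the file headers. The p-values and log2 values that the authors deposited from their comparison entered no test. Of the 44 genes, 18 had in the authors' deposited table a false discovery rate under 0.05, all 18 being higher in ΔE2. The share of all genes under that rate in the authors' comparison was not counted, so the 18 have no background beside them. Reads per class came from the authors' mapping table, as percentages per the file headers.

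Counts were tested in R 4.3.3 with edgeR 4.0.16 (filterByExpr, which kept 14632 genes and left out 145, TMM, robust estimateDisp and glmQLFit, glmQLFTest, two-sided, with a term for group alone). P-values were adjusted over all tested genes by Benjamini and Hochberg's method and called under 0.05. Fold changes are ΔE2 minus FL, and the SE is the fold change's size over the square root of F. CPM is scaled with TMM, and levels between genes were compared per kilobase of the deposited gene length, with exon bases of GENCODE M21 as an alternative added after the data were seen. The biological coefficient of variation was 13.1%. The test was also run on simulated counts. These were drawn without the shared deviations of same-numbered libraries described below, so that run does not vouch for the calls.

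Libraries with the same replicate number deviated from their group means together (correlations across 14632 genes of 0.392, 0.207 and 0.185, against -0.287 to 0.0972 for different numbers). All 3 were over 0.1, so the number was taken to pair the libraries, an inference from these data. Deviations from a group mean cancel within the group. The correlations for different numbers are therefore tied to those for the same number and are no separate check. Alternatives were other scalings (DESeq2 size factors, upper quartile, plain library sizes without a composition factor), other tests (DESeq2 1.42.0, limma-voom of limma 3.58.1, edgeR's likelihood ratio test), the replicate block, no filter, a stricter filter (CPM of at least 5 in 3 libraries) and each library left out. The members and lists were chosen with earlier results of these data known. All 44 members are named, with values in every library for those that passed, the highest per length of each role and 4 pairs of paralogues. Values in every library for Spcs3 and Dpm1 were added after they were seen. Of each other list up to 3 genes with the smallest p that passed are named. One gene of the sugar donor list is counted there and not reported here by name.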

Additional observations from a re-analysis of the deposited data

How the results depend on the processing

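The count of higher genes among the 44 stayed within 1.5 times the reported 15 under either filter on low counts, under upper quartile or DESeq2 scaling, and with the likelihood ratio test, DESeq2 and limma-voom (12 to 20), and 0 were lower in any of the 15 alternatives (at an unadjusted p under 0.05, 0 were lower in the reported fit and in 14 of the alternatives, and 1, Tusc3, without the composition factor). In the fits that gave 12 to 20, the share of all tested genes that were higher was 3.05% to 5.01%. With the replicate block 26 of the 44 were higher, and 1678 of all genes were higher and 1471 lower. Without the composition factor 7 of the 44 were higher, with a median of 0.213, and 264 of all genes were higher and 954 lower. Leaving out 1 library at a time gave 0 to 21 of the 44 as higher, medians of 0.297 to 0.422, and 125 to 780 higher and 51 to 587 lower of all genes. The blocked fit ended no call of the 44 genes and added 11. A fit with a library left out has fewer samples, and the cause of the other shifts was not tested. Of the 660 fits of single genes (44 genes, 15 alternatives), 547 kept direction and side of the threshold, 58 lost a call, 27 gained one and 28 changed sign. The sign changed only for genes with reported values from -0.01 to 0.12. Without the composition factor the value was -0.122 for Srp9, -0.123 for Srp68, -0.0174 for Srp72, -0.0204 for Sec61g, -0.123 for Sec63, -0.121 for Tram1, -0.0585 for Sec11c and -0.0923 for Stt3b. With upper quartile scaling it was -0.0163 for Srp9, -0.0187 for Srp68, -0.0197 for Sec63 and -0.0154 for Tram1, and with the stricter filter -0.00275, -0.00465, -0.00636 and -0.0020 for the same genes. Over the fits without 1 library, Srp9 ranged from -0.0878 to 0.0917, Srp68 from -0.0881 to 0.0721, Sec63 from -0.072 to 0.0677, Tram1 from -0.0375 to 0.0614, Stt3b from -0.0354 to 0.106 and Srp14 from -0.0753 to 0.0726. Counting error weighs most on Srp54a, with the fewest reads of the 44 genes (108 to 167 per library, against 10219 to 22184 for Stt3a). With exon bases of GENCODE M21 as length, chosen after the data were seen, Sec11c was at 41.1 CPM per kilobase in ΔE2 and 38.9 in FL, against 90.7 in ΔE2 and 85.9 in FL by the deposited length.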

Other observations

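The share of called genes depended on level. Of 570 tested genes with a mean of at least 300 CPM, 13.5% were higher and 0.351% lower in ΔE2, with a median log2 fold change of 0.14, while of 7703 genes under 20 CPM 1.26% were higher and 2.05% lower, with a median of -0.07. Of the 44 genes 17 stood at 300 CPM or more, and 8 of these were higher (median log2 fold change 0.46). Between 100 and 300 CPM, 5 of 13 were higher, beside 9.37% of 1601 genes, and between 20 and 100 CPM 2 of 13, beside 4.71% of 4758 genes. The level ranges were chosen after the data were seen. Across the 44 genes the log2 fold change had a Pearson r of 0.346 and a Spearman rho of 0.396 with log2 mean CPM, and 0.271 and 0.248 with log2 gene length. These describe genes measured in the same 6 libraries, which are not independent replicates.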
